A study of Mus musculus with 4 samples.

Results

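The regulated vesicle exocytosis machinery is the set of proteins that bring a secretory vesicle to the plasma membrane, hold it there and fuse it when calcium rises. It was examined as 34 genes of 23235 gene symbols measured in mouse colon, chosen by symbol from the families that do this work: SNAREs and their regulators, synaptotagmins, Rab GTPases, release site scaffolds, priming factors and vesicle membrane proteins. All 34 had exactly 1 row in the gene files of every library. RNA came from the 2 cm of colon that follow the caecum, in mice of 6 weeks on a mixed strain background. The mutant libraries, mutant 1 and mutant 2, were from Nkx2.2flox/flox; Villin-Cre/+ mice, and the control libraries, control 1 and control 2, were from Nkx2.2flox/+ mice, which carry a floxed allele but no Cre, so that the groups differ in Cre as well as in allele number. Villin-Cre is active in the intestinal epithelium and not in the nerves, muscle or immune cells of the wall, all of which the dissected colon still holds. Sex, litter and the number of animals behind a library are not given in the sources used here, so p-values measure only the spread between these libraries, which may be technical.

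Fusion is driven by a bundle of SNARE proteins, with synaptobrevin (Vamp2) on the vesicle and syntaxin 1A (Stx1a) and Snap25 on the plasma membrane. Synaptotagmins sense calcium, complexins and tomosyns hold or release the bundle, Rab GTPases carry the vesicle to its site, and RIM, Munc13 and CAPS proteins dock it and make it ready. In the colon this machinery is best known from enteroendocrine cells, the epithelial cells that release serotonin and peptide hormones from dense-core granules, and from enteric neurons. Several of the Rab proteins also serve other secretory cells. Nkx2-2, the gene deleted here, encodes a homeodomain protein that helps direct enteroendocrine cell fate. In whole colon RNA, fewer cells of a type and less RNA per cell cannot be told apart.

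Library depth, from the ratio of transcript coverage to FPKM (fragments mapped to a gene, scaled for transcript length and library size), was 0.464 in mutant 1 and 1.03 in mutant 2, against 1.13 in control 2, all relative to control 1. Mutant 1 was the shallowest, and the number of fragments implied by the width of the deposited interval is given beside some of the low values. The targeted gene Nkx2-2 stood at 0.125 and 0.351 FPKM in mutant libraries, against 0.724 and 0.609 FPKM in control libraries. The colonocyte genes Car1 and Krt20 were abundant in all 4 libraries, at 15112 FPKM or more and at 851 FPKM or more.

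None of the exocytosis genes passed the test between mutant and control colon, while most of them had lower estimates in the mutants. Of the 34 genes, the 28 that averaged 0.5 FPKM or more over the 4 libraries were tested on log2(FPKM + 0.5) within a limma fit over 13997 genes, and 0 of 28 passed a Benjamini-Hochberg adjusted p of 0.05, where 0.0643% of all tested genes did and 0.0286% did as lower in mutants. Their adjusted p-values ran from 0.825 to 0.993. At an unadjusted p under 0.05, 3 of 28 were lower in mutants (10.7%, against 4.12% of all tested genes) and 0 were higher (against 0.7%). Without mutant 1 this number was 1 of 28 (3.57%, against 1.88% of all tested genes), and without mutant 2 it was 6 of 28 (21.4%, against 14.7% of all tested genes). An exact permutation test of 2 libraries against 2 cannot go below p = 0.333 and was not used.

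As deposited, the log2 change (mutant minus control) was below 0 in 27 of 28 tested exocytosis genes (96.4%, against 82.6% of all tested genes). After median ratio rescaling of the libraries, for which the share of all tested genes was not counted, it was below 0 in 24 of these 28 genes. Their median change was −0.32 beside −0.17 for all tested genes, and −0.16 beside 0.01 after rescaling. In 16 of 28 both mutants lay below both controls (57.1%, against 35.1% of all tested genes), and in 0 they lay above (against 3.39%). After rescaling, 11 of 28 were still below in both mutants (39.3%, against 15.3% of all tested genes), namely Snap25, Stx1a, Cplx2, Syt1, Syt11, Syt13, Rab3c, Rab27a, Rab37, Ptprn and Syp. Rescaled margins were narrow for Rab27a (19.1 FPKM in mutant 2, 19.3 FPKM in control 1) and Syt13 (4.21 FPKM in mutant 2, 4.32 FPKM in control 2). The same held for Stx1a (1.74 FPKM in mutant 2, 1.79 FPKM in control 2). With no filter on low values all 34 entered the fit, 30 had a negative and 4 a positive change, and the median was −0.25 beside −0.10 for 20335 genes.

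**Figure D1:**
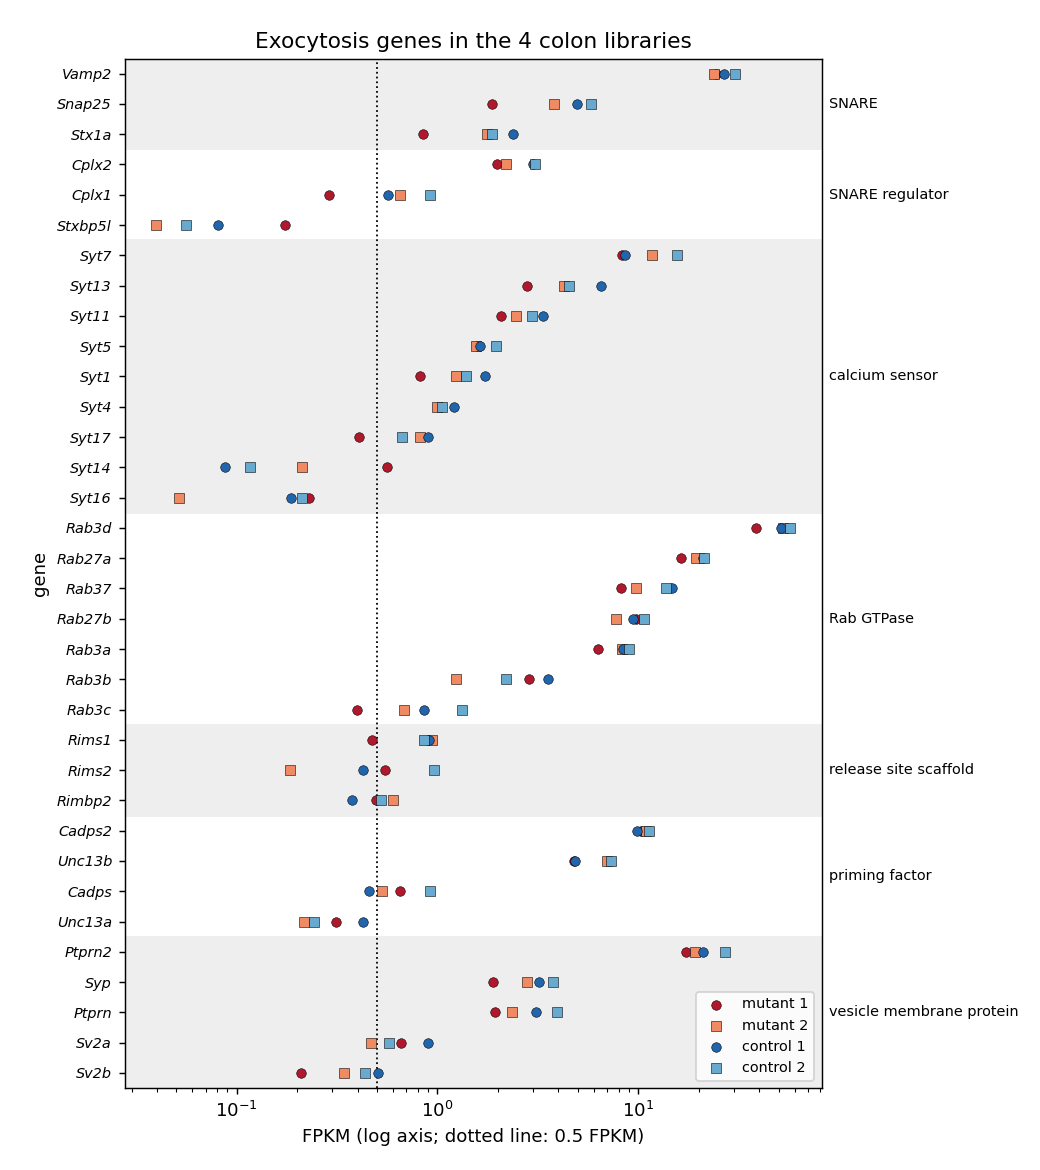
FPKM of the 34 exocytosis genes in mutant 1, mutant 2, control 1 and control 2, on a log axis, grouped by role; the dotted line marks 0.5 FPKM. Levels span from 0.0399 FPKM (Stxbp5l in mutant 2) to 56.9 FPKM (Rab3d in control 2), and mutant 1 is the lowest library for 19 of the 28 tested genes.

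The lowest value of the 4 was in mutant 1 for 19 of the 28 tested genes (67.9%, against 66.3% of all tested genes), in mutant 2 for 7 and in control 1 for 2. The highest was in control 2 for 18, in control 1 for 9 and in mutant 2 for 1. In 7 of 28 genes (25%, against 5.51% of all tested genes) both mutants lay below both controls with a log2 change of −0.5 or less, and these 7 are given with full statistics: Snap25, Stx1a, Syt13, Rab37, Rab3c, Syp and Ptprn. On mm9, the build of the files, they span 136539186 to 136608164 of chromosome 2 (Snap25), 135499442 to 135526969 of chromosome 5 (Stx1a), 92755258 to 92796208 of chromosome 2 (Syt13), 114952745 to 115023554 of chromosome 11 (Rab37), 110844396 to 111070414 of chromosome 13 (Rab3c), 7215706 to 7230382 of chromosome X (Syp) and 75243616 to 75260783 of chromosome 1 (Ptprn). In GENCODE vM1 on the same assembly Rab3c and Ptprn lie on the minus strand and the other 5 on the plus strand.

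Promoter windows, which run from 250 bases before to 50 bases after a transcript start, were taken from RefSeq on GRCm38.p6 for 24 of the 34 genes, with 31 windows in all. Of the 7 genes above, Syp, Stx1a, Rab3c and Ptprn have one, and these are shown as the start regions of the genes given with full statistics. Each is written 5′ to 3′ on its own strand, with matches to the motifs named after them in capitals.
Syp, chrX:7638330-7638629, plus strand: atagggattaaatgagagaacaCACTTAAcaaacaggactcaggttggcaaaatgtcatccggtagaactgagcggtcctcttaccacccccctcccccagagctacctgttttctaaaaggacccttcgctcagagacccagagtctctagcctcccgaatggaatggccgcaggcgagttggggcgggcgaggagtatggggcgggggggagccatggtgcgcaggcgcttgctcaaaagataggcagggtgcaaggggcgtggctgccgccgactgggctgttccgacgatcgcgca
Stx1a, chr5:135023232-135023531, plus strand: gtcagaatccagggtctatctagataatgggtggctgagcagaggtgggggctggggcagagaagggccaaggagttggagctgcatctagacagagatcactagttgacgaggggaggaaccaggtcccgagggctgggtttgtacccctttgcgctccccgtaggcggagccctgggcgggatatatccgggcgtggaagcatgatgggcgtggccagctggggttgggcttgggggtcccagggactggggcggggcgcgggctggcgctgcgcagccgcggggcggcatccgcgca
Rab3c, chr13:110280157-110280456, minus strand: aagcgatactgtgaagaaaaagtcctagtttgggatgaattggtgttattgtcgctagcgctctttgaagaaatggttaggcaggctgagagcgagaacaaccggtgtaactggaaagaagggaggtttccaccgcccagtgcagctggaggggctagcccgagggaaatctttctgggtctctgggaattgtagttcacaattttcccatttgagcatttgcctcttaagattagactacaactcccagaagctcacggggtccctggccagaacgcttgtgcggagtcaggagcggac
Ptprn, chr1:75264159-75264458, minus strand, the outer of 2 windows: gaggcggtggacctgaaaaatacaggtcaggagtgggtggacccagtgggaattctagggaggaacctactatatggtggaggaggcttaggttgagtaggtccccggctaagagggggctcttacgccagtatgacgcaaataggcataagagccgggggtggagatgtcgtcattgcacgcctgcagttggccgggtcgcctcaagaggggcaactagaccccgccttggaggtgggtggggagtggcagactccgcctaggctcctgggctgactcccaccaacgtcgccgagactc
The first motif searched, on both strands, was the core bound by NKX2 homeodomain proteins, TTAAGTG or TCAAGTG. It is present in 3 of 31 windows (Syp, Rab27a and Syt11), and in 5.34% of all 32851 promoter windows. The Syp match lies on the opposite strand and its first base is 228 bases before the start. CAGCACC, part of the left arm of the element bound by the neuronal gene repressor REST, is present in 2 of 31 windows (Ptprn2 and Unc13a), and in 7.14% of all windows. The 2 motifs cannot overlap in these matches, since no window of the 34 genes holds both, and a match of 7 letters is a description of the sequence only.

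With all 4 libraries Snap25, a SNARE gene, had the log2 change farthest from 0 of the 28 tested exocytosis genes. Without mutant 1, Rab3b (−0.92), Rims2 (−0.77), Rab37 (−0.52) and Ptprn (−0.48) lay farther from 0 than Snap25, and without control 2 Syt13 (−0.83) did. As deposited, all 3 SNARE genes had lower values in both mutants than in both controls, as did 35.1% of all tested genes. After median ratio rescaling this held for Snap25 and Stx1a, while the Vamp2 groups overlapped. Rescaled, Vamp2 had 28.3 and 23.5 FPKM in mutant libraries and 24.6 and 28.9 FPKM in control libraries. Snap25, a plasma membrane SNARE, had 1.87 and 3.81 FPKM in mutant libraries, against 4.94 and 5.82 FPKM in control libraries (2.84 ± 1.37 against 5.38 ± 0.627, SD, n = 2 each). Mutant 1 lay far below the other 3 libraries, from 25 implied fragments against 113 to 189. The log2 change was −0.88 (SE 0.31, 95% interval −1.58 to −0.17), a level 1.83-fold lower in mutants as computed on log2(FPKM + 0.5), and −0.71 relative to the median of all genes, and it did not pass (limma unadjusted p = 0.0203, adjusted p = 0.825). Without mutant 1 it was −0.44. Stx1a, syntaxin 1A, had 0.845 and 1.76 FPKM in mutant libraries, against 2.39 and 1.86 FPKM in control libraries. Mutant 2 lay just under control 2, and the gap between the groups rests on mutant 1 with 11 implied fragments. Its log2 change was −0.58 (SE 0.31, 95% interval −1.30 to 0.14, limma unadjusted p = 0.0992, adjusted p = 0.825), −0.42 relative to all genes and −0.21 without mutant 1. Vamp2, the vesicle SNARE, was the second most abundant of the 34 genes. It had 24.5 and 23.8 FPKM in mutant libraries, against 26.9 and 30.2 FPKM in control libraries, a log2 change of −0.23 (95% interval −0.65 to 0.18) and of −0.06 relative to all genes.

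**Figure D2:**
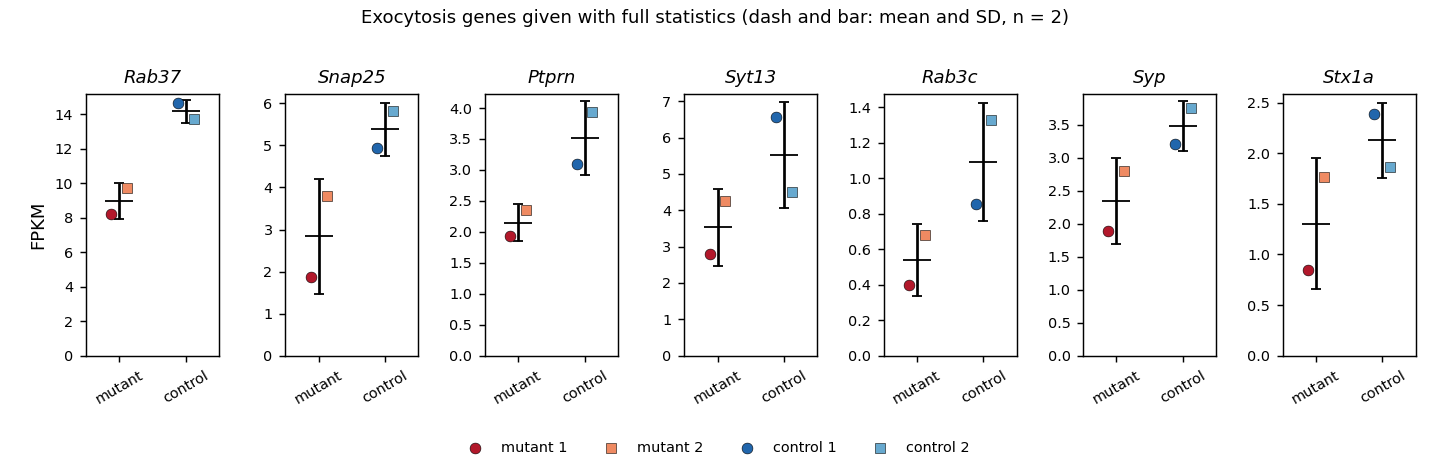
FPKM of the 7 exocytosis genes given with full statistics in each library, with the mean (dash) and SD (bar, n = 2) of mutants on the left and controls on the right of each panel, each axis starting at 0. In every panel both mutant points lie below both control points, which is how these genes were chosen. The margin is narrow for Syt13 (4.27 FPKM in mutant 2, 4.50 FPKM in control 2) and Stx1a (1.76 FPKM in mutant 2, 1.86 FPKM in control 2).

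The regulators of the SNARE bundle were low in this tissue. Cplx2, complexin 2, which clamps and then promotes fusion, was the most abundant of the 3. It had 1.97 and 2.196 FPKM in mutant libraries, against 2.98 and 3.04 FPKM in control libraries. The mutants lay close together and below both controls, which nearly coincided, with a log2 change of −0.44 (SE 0.23, 95% interval −0.97 to 0.08, limma unadjusted p = 0.0879, adjusted p = 0.825). Its paralogue Cplx1 had 0.288 and 0.649 FPKM in mutant libraries, against 0.569 and 0.920 FPKM in control libraries, with overlapping groups and only 4 implied fragments in mutant 1. Stxbp5l, a tomosyn that holds back SNARE assembly, was under the 0.5 FPKM minimum, at 0.173 and 0.0399 FPKM in mutant libraries, against 0.0805 and 0.0563 FPKM in control libraries.

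Of the 9 synaptotagmin genes, 7 were tested and all 7 had negative changes as deposited (against 82.6% of all tested genes), with a median of −0.22. Syt4 had a positive change after median ratio rescaling (0.03), and Syt4 and Syt5 had one after quantile normalization (0.04 each). Syt7 had a positive change without mutant 1 (0.02) and without control 2 (0.19), and Syt17 had one without mutant 1 (0.05). Syt13, a family member known not to depend on calcium, had 2.78 and 4.27 FPKM in mutant libraries, against 6.56 and 4.50 FPKM in control libraries. Mutant 1 and control 1 stood at the ends and the other libraries nearly met in the middle. Its log2 change was −0.59 (SE 0.28, 95% interval −1.22 to 0.05, limma unadjusted p = 0.0658, adjusted p = 0.825), −0.42 relative to all genes, −0.32 without mutant 1 and −0.34 without control 1. Syt7, a high-affinity calcium sensor of dense-core granules and the most abundant of the family, had 8.34 and 11.8 FPKM in mutant libraries, against 8.61 and 15.5 FPKM in control libraries. Its controls were farther apart than its group means, and the interval of its log2 change ran from −0.90 to 0.47. Syt1, the sensor of fast transmitter release, had 0.821 and 1.24 FPKM in mutant libraries, against 1.73 and 1.39 FPKM in control libraries (log2 change −0.44, 95% interval −1.08 to 0.20). Syt11, which does not sense calcium, had 2.07 and 2.47 FPKM in mutant libraries, against 3.37 and 2.96 FPKM in control libraries (log2 change −0.41, 95% interval −0.94 to 0.13). In both genes the mutants lay below both controls.

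Other synaptotagmins differed little or were near the detection limit. Syt4 had 1.05 and 0.993 FPKM in mutant libraries, against 1.204 and 1.05 FPKM in control libraries. Syt5 had 1.58 and 1.56 FPKM in mutant libraries, against 1.64 and 1.95 FPKM in control libraries, and its mutants were below both controls by less than the distance between the controls. Syt17 overlapped, at 0.406 and 0.823 FPKM in mutant libraries and 0.896 and 0.669 FPKM in control libraries, with 4 implied fragments in mutant 1. Syt14 and Syt16 were under the 0.5 FPKM minimum and had no test. Syt14 was the 1 gene of the 34 with both mutants above both controls, at 0.564 and 0.211 FPKM in mutant libraries and 0.0873 and 0.116 FPKM in control libraries. These values rest on 6 and 5 implied fragments in mutants and 2 and 3 in controls. Syt16 had 0.229 and 0.0516 FPKM in mutant libraries and 0.186 and 0.212 FPKM in control libraries.

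All 7 Rab genes were tested and had negative changes as deposited (against 82.6% of all tested genes), with a median of −0.26. Rab27b had a positive change after quantile normalization (0.01) and Rab3b without mutant 2 (0.02). Rab37, a Rab of secretory granules, had the smallest p of the 28 genes with all 4 libraries. It stood at 8.24 and 9.72 FPKM in mutant libraries, against 14.7 and 13.7 FPKM in control libraries (8.98 ± 1.05 against 14.2 ± 0.668, SD, n = 2 each). The gap between the groups was wider than the distance between the libraries of either group. Its log2 change was −0.63 (SE 0.20, 95% interval −1.09 to −0.18), 1.55-fold lower in mutants as computed on log2(FPKM + 0.5), and −0.47 relative to all genes, and it did not pass (limma unadjusted p = 0.0119, adjusted p = 0.825). With each library left out in turn it ran from −0.75 (without mutant 2) to −0.52 (without mutant 1). Its short isoform NM_021411 carried nearly all of the estimate, at 8.01 and 9.51 FPKM in mutant libraries and 14.7 and 13.6 FPKM in control libraries.

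Rab3 proteins sit on vesicles and bind the RIM scaffolds. The 4 paralogues lay at very different levels. Rab3d, known from exocrine and other non-neuronal secretory cells, was the most abundant of the 34 genes, at 38.4 and 52.8 FPKM in mutant libraries, against 51.3 and 56.9 FPKM in control libraries. Its groups overlapped and the 95% interval of its log2 change ran from −0.73 to 0.21. Rab3a, the neuronal and endocrine form, had 6.27 and 8.34 FPKM in mutant libraries, against 8.44 and 8.96 FPKM in control libraries, so that mutant 2 stood beside control 1. Rab3b had 2.85 and 1.24 FPKM in mutant libraries, against 3.54 and 2.19 FPKM in control libraries, with overlapping groups. Rab3c was the lowest paralogue, at 0.396 and 0.683 FPKM in mutant libraries, against 0.856 and 1.33 FPKM in control libraries (0.540 ± 0.202 against 1.09 ± 0.332, SD, n = 2 each). Both mutants were below both controls, and the controls were themselves far apart. The log2 change of Rab3c was −0.61 (SE 0.31, 95% interval −1.32 to 0.10, limma unadjusted p = 0.0815, adjusted p = 0.825), −0.44 relative to all genes, with values from −0.83 (without control 1) to −0.40 (without control 2) when a library was left out. It was −0.91 with a pseudocount of 0.1 and −0.44 with a pseudocount of 1.

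Rab27 proteins tether granules to the cortex through effector proteins. Rab27a had 16.4 and 19.3 FPKM in mutant libraries, against 21.1 and 21.4 FPKM in control libraries (log2 change −0.25, 95% interval −0.68 to 0.19). Rab27b had 9.75 and 7.78 FPKM in mutant libraries, against 9.45 and 10.7 FPKM in control libraries (log2 change −0.20, 95% interval −0.68 to 0.29). The Rab27a mutants lay below both controls, and the Rab27b groups overlapped.

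Scaffold and priming genes showed no separation. Of the RIM scaffold genes, Rims1 had 0.472 and 0.937 FPKM in mutant libraries, against 0.908 and 0.857 FPKM in control libraries, with a log2 change of −0.23 that turned to 0.06 without mutant 1. The Rims1 value of mutant 1 has 7.55 implied fragments, a rough number in a gene with 5 isoforms. Rims2 had 0.549 and 0.184 FPKM in mutant libraries, against 0.424 and 0.965 FPKM in control libraries. Rimbp2, which links RIM to calcium channels, was under the minimum at 0.493 and 0.603 FPKM in mutant libraries and 0.376 and 0.522 FPKM in control libraries. Groups overlapped for all 3.

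Cadps2, a CAPS factor that primes dense-core granules, was the only tested exocytosis gene with a positive log2 change as deposited (0.01, 95% interval −0.44 to 0.46), which was −0.03 without mutant 2 and −0.09 without control 1. It had 10.3 and 10.96 FPKM in mutant libraries, against 9.89 and 11.3 FPKM in control libraries, so that both mutants lay between the controls. Unc13b, which encodes the Munc13-2 priming factor, had 4.78 and 7.01 FPKM in mutant libraries, against 4.83 and 7.27 FPKM in control libraries, with libraries of the same number alike and groups that coincide (log2 change −0.03, 95% interval −0.66 to 0.59). It turned to 0.14 after median ratio rescaling, 0.18 after quantile normalization, 0.22 without mutant 1 and 0.24 without control 2. Cadps, the neuronal and endocrine CAPS gene, had 0.652 and 0.527 FPKM in mutant libraries and 0.454 and 0.915 FPKM in control libraries, and its change turned to 0.01 after rescaling and to 0.19 without control 2. Unc13a, for Munc13-1 of neurons, was under the minimum at 0.313 and 0.216 FPKM in mutant libraries and 0.428 and 0.243 FPKM in control libraries. The 3 tested priming genes had a median change of −0.03, and each of the intervals includes a shift of 0.4 in either direction.

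**Figure D3:**
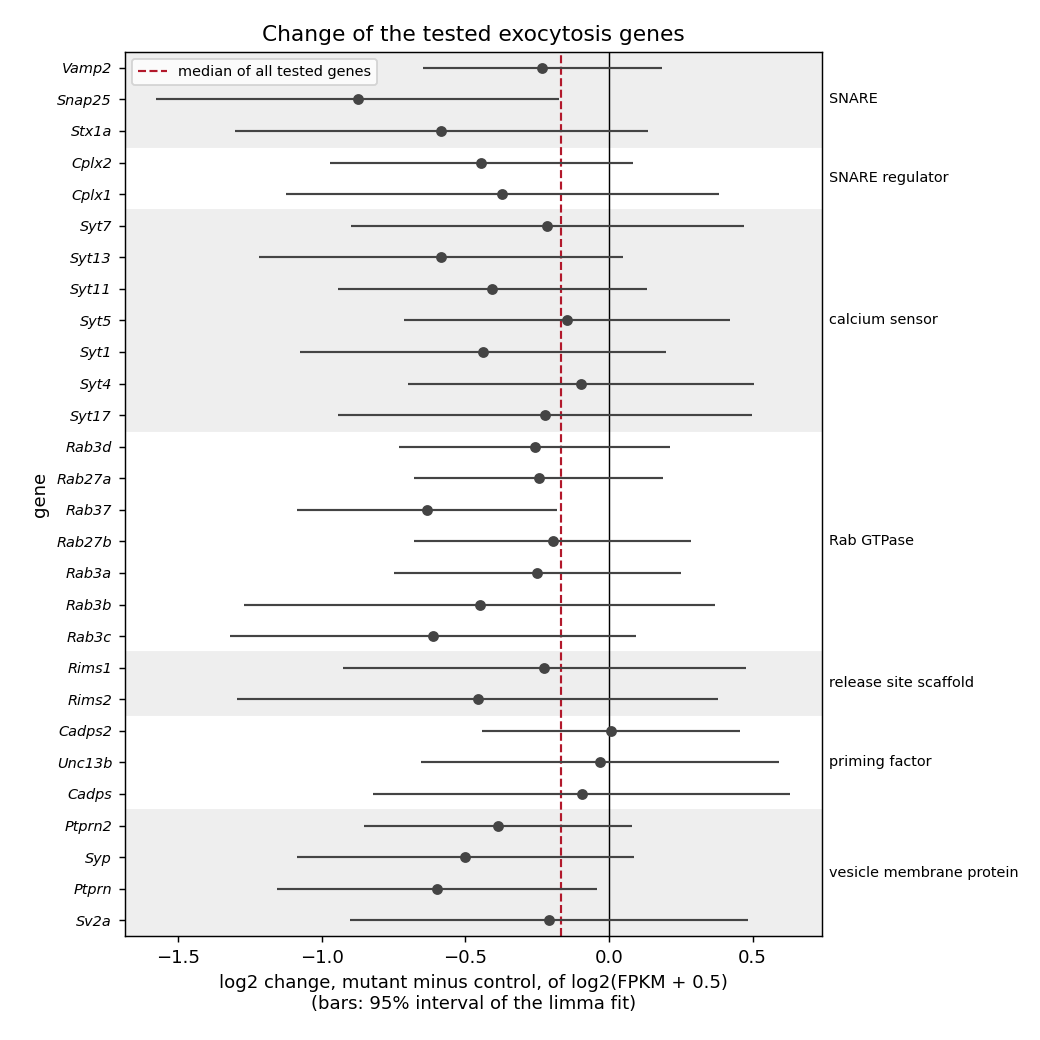
Log2 change (mutant minus control, on log2(FPKM + 0.5)) of the 28 tested exocytosis genes by role, with 95% intervals of the limma fit; the dashed line is the median of all tested genes, −0.17. Intervals of Snap25, Rab37 and Ptprn lie below 0, those of the other 25 genes include 0, and the priming factors sit nearest to 0.

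Of the vesicle membrane proteins, 4 of 5 genes were tested and had negative changes as deposited (against 82.6% of all tested genes), with a median of −0.44. Ptprn (IA-2, a receptor phosphatase-like protein of dense-core granules and an autoantigen of type 1 diabetes in humans) had 1.93 and 2.36 FPKM in mutant libraries, against 3.09 and 3.94 FPKM in control libraries (2.15 ± 0.301 against 3.52 ± 0.601, SD, n = 2 each). Both mutants lay below both controls, from 45 and 122 implied fragments against 155 and 223. Its log2 change was −0.60 (SE 0.24, 95% interval −1.16 to −0.04), 1.51-fold lower in mutants as computed on log2(FPKM + 0.5). It was −0.43 relative to all genes and did not pass (limma unadjusted p = 0.0386, adjusted p = 0.825). With a library left out it ran from −0.75 (without control 1) to −0.45 (without control 2). Its paralogue Ptprn2 (phogrin, also of dense-core granules) was 1 of the 4 most abundant exocytosis genes, at 17.2 and 19.2 FPKM in mutant libraries, against 21.1 and 27.2 FPKM in control libraries (log2 change −0.39, 95% interval −0.85 to 0.08, limma unadjusted p = 0.0925, adjusted p = 0.825).

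Syp, synaptophysin, the major protein of small clear vesicles, had 1.89 and 2.80 FPKM in mutant libraries, against 3.21 and 3.75 FPKM in control libraries. Mutant 1 was the lowest and mutant 2 lay under control 1, with a log2 change of −0.50 (SE 0.26, 95% interval −1.09 to 0.09, limma unadjusted p = 0.0849, adjusted p = 0.825), −0.33 relative to all genes and −0.27 without mutant 1. Sv2a and Sv2b encode transporter-like glycoproteins of vesicles. Sv2a had 0.655 and 0.468 FPKM in mutant libraries and 0.895 and 0.571 FPKM in control libraries, with overlapping groups. Sv2b was under the minimum at 0.210 and 0.341 FPKM in mutant libraries and 0.507 and 0.438 FPKM in control libraries, and its mutants were below both controls. Its mutant 1 value has 5.15 implied fragments, a rough number in a gene with 2 isoforms.

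**Figure D4:**
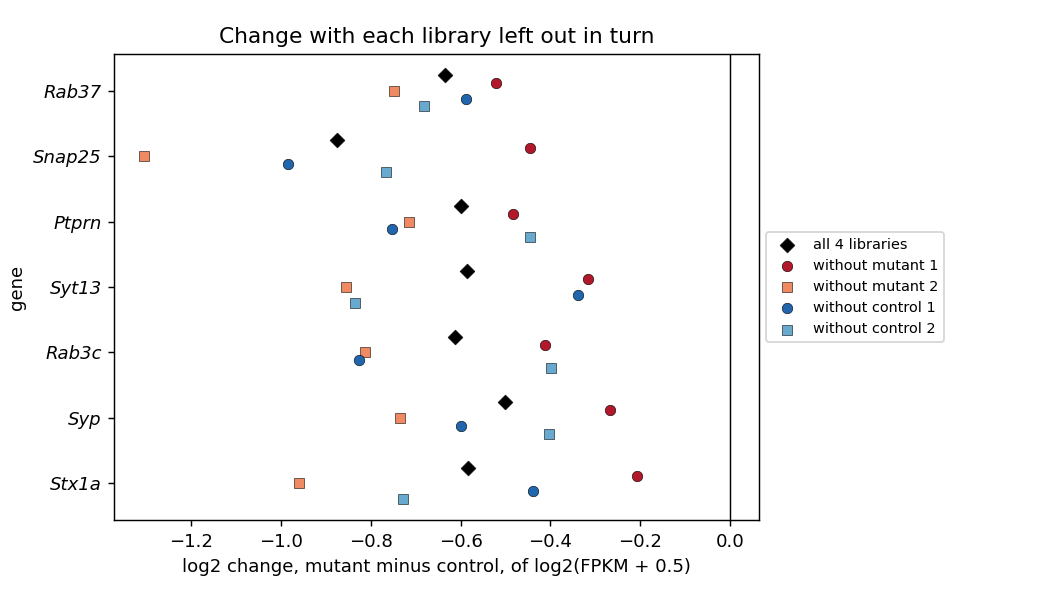
Log2 change of the 7 exocytosis genes with full statistics, with all 4 libraries (black) and with each library left out in turn. Every value is below 0, which follows from the choice of genes whose mutants both lie below both controls. The values without mutant 1 lie nearer to 0 than those with all 4 libraries, since mutant 1 is the lowest library for each of these genes. Rab37 has the narrowest range, −0.75 to −0.52.

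Isoforms gave no call either. The 34 genes have 60 RefSeq isoforms in the files, 22 genes having 1 each, and 32 isoforms reached the 0.5 FPKM minimum. Of these 0 of 32 passed in a limma fit over 16903 isoforms (against 0.00592% of all). At an unadjusted p under 0.05, 1 of 32 was lower (against 3.18%), which was NM_021411 of Rab37 (limma unadjusted p = 0.0171, adjusted p = 0.853). Isoforms of a gene share reads, and the estimates moved between them from library to library. For Unc13b, NM_021468 had 4.78 and 4.68 FPKM in mutant libraries, against 2.65 and 3.61 FPKM in control libraries, a log2 change of 0.54 (SE 0.25, limma unadjusted p = 0.0823, adjusted p = 0.853). The other Unc13b isoform, NM_001081413, had 6.48e-05 and 2.34 FPKM in mutant libraries, against 2.18 and 3.67 FPKM in control libraries. For Cadps2, NM_001252107, a transcript of 3146 bases, had 1.64 and 1.56 FPKM in mutant libraries, against 0.883 and 0.553 FPKM in control libraries (log2 change 0.80, SE 0.35, limma unadjusted p = 0.0740, adjusted p = 0.853). The main Cadps2 transcript, NM_001252110 of 4833 bases, had 8.01 and 8.32 FPKM in mutant libraries and 8.45 and 10.1 FPKM in control libraries. In these 2 genes the gene totals overlapped between groups. NM_021468 and NM_001252107 were 2 of the 5 tested isoforms with a positive change, beside 27 with a negative one. The part of read sharing between isoforms in these estimates was not tested. The Syt7 isoform NM_173067 had 4.34 and 0.416 FPKM in mutant libraries and 2.29e-05 and 0.450 FPKM in control libraries.

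In the authors' deposited table, which rests on counts, 24 of the 34 exocytosis genes had a negative and 10 a positive log2 fold change of mutant over control. Their median there was −0.17, beside 0.02 for all genes of that table with a finite value. All 34 have an adjusted p of 1 in the authors' deposited table, 0 are at an unadjusted p under 0.05, and 0.0384% of its 20834 genes with a p pass. Rab37 has the smallest p of the 34 in the authors' deposited table (0.137), with mean normalized counts of 246 in mutants and 349 in controls and a log2 fold change of −0.51. In the authors' deposited table Snap25 has 79.7 in mutants and 137 in controls (log2 fold change −0.79), and Rab3c has 61.3 in mutants and 112 in controls (log2 fold change −0.87).

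A wider list of 91 other genes of vesicle docking and fusion was chosen by function. Of them 70 were tested and 0 passed, 63 with a negative and 7 with a positive change, and 0 were at an unadjusted p under 0.05 in limma. Their median change was −0.22, beside −0.17 for all genes. The smallest p belonged to Rims3, a short RIM protein, at 0.373 and 0.336 FPKM in mutant libraries, against 0.779 and 0.844 FPKM in control libraries (log2 change −0.62, limma unadjusted p = 0.0612, adjusted p = 0.825). Stx2, a syntaxin of epithelial and other cells, had 2.11 and 3.10 FPKM in mutant libraries, against 4.23 and 3.55 FPKM in control libraries. Myrip, an effector that links Rab27a to myosin, had 1.82 and 2.32 FPKM in mutant libraries, against 2.90 and 3.15 FPKM in control libraries. Rab3il1, an exchange factor for Rab3a, had 3.72 and 4.02 FPKM in mutant libraries, against 5.09 and 5.41 FPKM in control libraries, and Stx4a, a syntaxin of many cell types, had 31.6 and 41.3 FPKM in mutant libraries, against 53.9 and 42.9 FPKM in control libraries. In these 5 genes, named for their small p, both mutants lay below both controls. Over the wider list this held for 26 of 70 (against 35.1% of all tested genes). Both mutants lay above both controls in 3 of 70 (against 3.39%).

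The most abundant genes of that wider list serve secretion and recycling in most cells. Vamp8, an endosomal and granule SNARE of epithelia, had 202 and 210 FPKM in mutant libraries, against 228 and 203 FPKM in control libraries. Syngr2 had 129 and 164 FPKM in mutant libraries, against 178 and 176 FPKM in control libraries. Scamp2 had 114 and 132 FPKM in mutant libraries, against 128 and 143 FPKM in control libraries. Rab11a, the Rab of recycling endosomes, had 76.4 and 85.8 FPKM in mutant libraries, against 81.4 and 85.7 FPKM in control libraries. Groups overlapped for Vamp8, Scamp2 and Rab11a.

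Markers of cells known to use this machinery were measured in the same libraries, where 82.6% of all tested genes had negative changes. Of 21 tested enteroendocrine markers 16 had negative and 5 positive changes, with a median of −0.53. As lower, 4 passed (Tph1, Chga, Chgb and Insl5, with adjusted p in limma of 0.0140, 0.0163, 0.0302 and 0.0140), where 0.0286% of all tested genes did. With no filter, after median ratio rescaling, after quantile normalization and without histone and small RNA genes, 0 of all tested genes passed as lower. In the main limma fit 11 of 21 were lower at an unadjusted p under 0.05 (against 4.12% of all tested genes) and 1 was higher (against 0.7%). The summed level of all 22 enteroendocrine markers was 481 and 464 FPKM in mutant libraries, against 479 and 641 FPKM in control libraries. Within it the hormone gene Pyy stood at 198 and 166 FPKM in mutant libraries, against 57.2 and 96.7 FPKM in control libraries. Of 21 tested enteric neuron markers 19 had negative and 2 positive changes, with a median of −0.40. In limma 0 passed, and 4 of 21 were lower at an unadjusted p under 0.05, again beside 4.12% of all tested genes. The sum of all 26 neuron markers was 85.0 and 118 FPKM in mutant libraries, against 122 and 159 FPKM in control libraries, with none at 0 in any library. The pan-neuronal gene Uchl1 had 7.47 and 12.8 FPKM in mutant libraries, against 18.3 and 15.2 FPKM in control libraries. The more abundant neuron markers Vip and Gal overlapped between groups. Vip had 26.2 and 33.5 FPKM in mutant libraries and 30.4 and 50.2 FPKM in control libraries. Gal had 18.7 and 24.1 FPKM in mutant libraries and 17.9 and 35.2 FPKM in control libraries. All 8 tested enteric glia markers had negative changes (median −0.55), of which 0 passed in limma and 3 had an unadjusted p under 0.05, with a sum over 12 of 22.05 and 25.0 FPKM in mutant libraries, against 34.9 and 32.6 FPKM in control libraries, and Sox2 was listed at 0 in at least 1 library. Snap25, Stx1a, Syt1, Rab3a, Rab3c, Cplx1, Cplx2 and Syp are expressed by neurons as well as endocrine cells. The part of either cell type in the differences of the exocytosis genes was not tested.

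**Figure D5:**
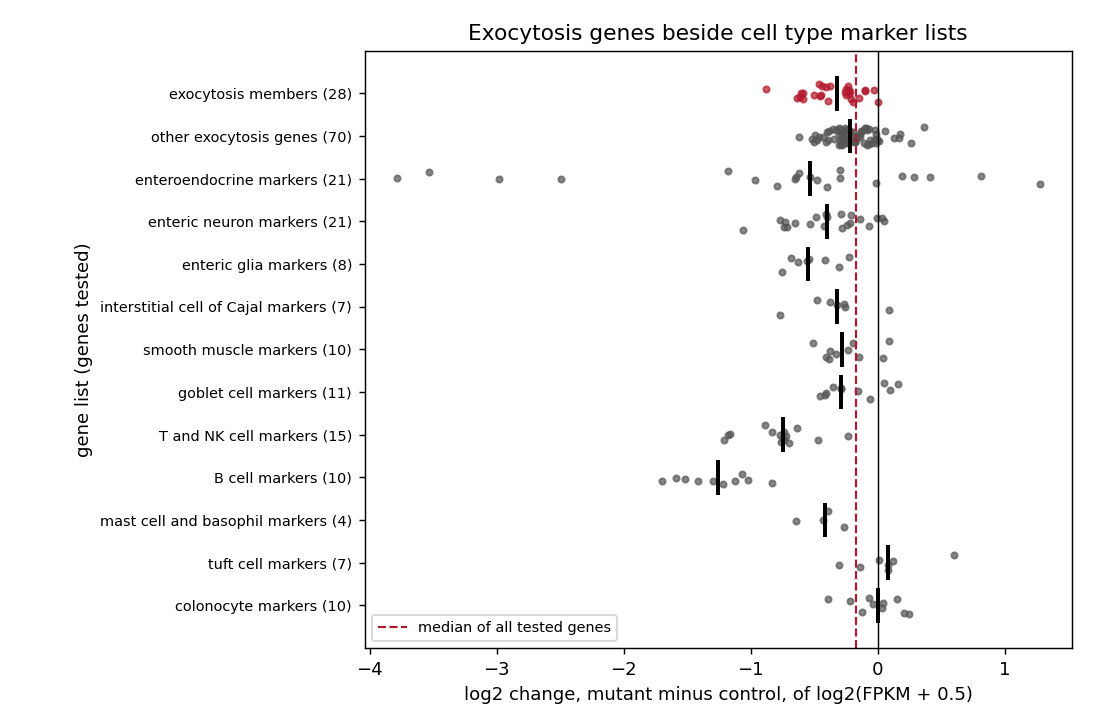
Log2 change (mutant minus control) of each tested gene in the exocytosis set and in the other lists; thick ticks are list medians, the dashed line is the median of all tested genes, and vertical scatter within a row has no meaning. The exocytosis genes lie within −0.88 to 0.01, while enteroendocrine markers spread from −3.79 to 1.28.

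Lists of other cells were counted in the same way, again beside 82.6% of all tested genes with negative changes. Markers of T and NK cells, which secrete granules through Rab27a, had negative changes in 15 of 15 (median −0.74), of which 0 passed in limma and 9 had an unadjusted p under 0.05, with sums of 129.97 and 144 FPKM in mutant libraries, against 317 and 207 FPKM in control libraries. Of 4 tested mast cell and basophil markers all had negative changes (median −0.41), with sums over 10 genes of 35.3 and 20.7 FPKM in mutant libraries and 34.1 and 31.3 FPKM in control libraries, while Mcpt4, Cma1, Fcer1a and Ms4a2 were listed at 0 in at least 1 library. B cell markers summed to 19.6 and 15.3 FPKM in mutant libraries, against 162 and 13.1 FPKM in control libraries, so that control 1 stood apart. Interstitial cells of Cajal had negative changes in 6 of 7 (median −0.32), smooth muscle in 8 of 10 (median −0.28) and goblet cells in 8 of 11 (median −0.28). None of these passed in limma, and at an unadjusted p under 0.05 there were 3 goblet cell markers, all lower, and 0 of the Cajal and smooth muscle markers. Of all tested genes 4.12% were lower at that p. Sums were 64.0 and 70.1 FPKM in mutant libraries and 74.6 and 81.3 FPKM in control libraries for the Cajal markers, 1503 and 1905 FPKM in mutants and 2056 and 1836 FPKM in controls for smooth muscle, and 10852 and 10594 FPKM in mutants and 13239.6 and 11434 FPKM in controls for goblet cells. Tuft cell markers had negative changes in 2 of 7 (median 0.08) and colonocyte markers in 5 of 10 (median 0.00). Their part in the exocytosis values was not tested either.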

How the data were processed

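For each of the 4 libraries the deposited files hold, per the file headers, FPKM of 23699 gene rows and 30028 RefSeq transcripts, with a 95% interval, a status and, for transcripts, the coverage signal and the length. The authors' deposited table of the series holds group mean normalized counts (a signal), a mutant over control fold change (ratio), the log2 of it and p-values. Tools and build named in the submitters' processing notes are mm9, TopHat, Cufflinks, DESeq and bcl2fastq 1.8.4. Their settings, and how strand was counted, are not given in the sources used here.

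Since the gene values are FPKM, count models were not used. Rows whose status was not OK in every library were left out (306 of 23699), rows sharing a symbol were summed, and the 13997 genes averaging 0.5 FPKM or more entered, as log2(FPKM + 0.5), a fit with limma 3.58.1 under R 4.3.3, using its variance trend, Benjamini-Hochberg adjustment and 2 residual degrees of freedom. Fold changes on this scale understate those of low genes. The fit was run on simulated data with no shift of whole libraries and with changes larger than those of the exocytosis genes. That run cannot show how the fit handles changes of the size seen here. Implied fragments come from the width of the deposited interval. In genes with 1 isoform and under 50 fragments they lay within 0.05 of a whole number in 86.5% to 87.6% of cases. They cover counting error only, and are computed as if the interval held nothing else. In genes with several isoforms the interval may also hold error from shared reads, and the numbers are then rough.

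The 34 genes, the lists and the tests were chosen with earlier results of these data known. Full statistics go to tested genes of the 34 with an unadjusted p under 0.05, or with groups that do not overlap and a log2 change of at least 0.5 in size. Of the 91 other genes the 6 with the smallest p (1 of them not reported here) and the 4 most abundant are named, and for each other list up to 3 abundant markers. Tph1, Insl5, Chga and Chgb were chosen for naming with their values known. Other settings tried were the pseudocount, filter, scaling, variance model, row handling, removal of histone and small RNA genes, a replicate block, leaving out each library, and the authors' deposited table. Of the marker lists, 2 genes were not used here. Promoters are from RefSeq on GRCm38.p6 and are not joined to mm9 coordinates.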

Additional observations from a re-analysis of the deposited data

How the results depend on the processing

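In limma, 0 of the 21 to 34 exocytosis genes tested passed under each alternative run, where 1 to 6 were at an unadjusted p under 0.05, and 0 of 34 passed in the authors' deposited table. Of their tested isoforms 0 passed under the alternatives run for isoforms, which leave out the row handling by symbol and the removal of histone and small RNA genes. The number of exocytosis genes at an unadjusted p under 0.05 was 3 in the main limma fit. It was 1 after quantile normalization (3.57%, against 1.89% of all tested genes as lower). The authors' deposited table had 0 exocytosis genes at that p, where 0.254% of all genes were lower. Their median log2 change of −0.32 was −0.16 after median ratio rescaling, −0.17 after quantile normalization, −0.16 without histone and small RNA genes, and −0.47 to −0.24 with a library left out. Over all genes 9 passed, against 2 with no filter, 3 after median ratio rescaling, 2 after quantile normalization, 0 in limma without histone and small RNA genes (where an unadjusted p under 0.05 was met by 111 genes as higher and 365 as lower), and 8 to 362 with a library left out. The cause was not tested. Each of the 7 genes with full statistics kept a negative change under all alternatives run, and at a minimum of 1 FPKM Rab3c gave no value. With a library left out the sign could not turn, since these genes were chosen with both mutants below both controls. The labels link the libraries of the 2 groups only by a replicate number. The deviations of replicate 1 in the 2 groups had r = −0.00217 over 13997 genes, which cannot show whether libraries were paired. With the replicate block 195 genes and 0 exocytosis genes passed. At an unadjusted p under 0.05 in that limma fit, 2 of 28 exocytosis genes were lower (7.14%, against 5.18% of all tested genes). The depth of mutant 1 limits the low genes, several of which rest on under 10 implied fragments there.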
